A study of Mus musculus with 6 samples.

Results

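The genes described here are the nuclear genes for the subunits of the respiratory chain and ATP synthase, measured in a mouse myeloid cell clone with and without the inducer of an Evi1 transgene. They were chosen by symbol, by a rule that holds no measured value, but with earlier results of these data known. The rule took probe sets with exactly 1 annotated symbol. The symbols were of the Nduf (a, b, c, s and v), Sdh (a to d), Uqcr, Cyc1, Cox4 to Cox8 and Atp5 families. The Ndufaf assembly factors were left out. This gave 83 genes of 18193 read on the arrays, namely 36 of complex I, 4 of complex II, 9 of complex III, 17 of complex IV and 17 of complex V. The 83 genes had 170 probe sets in all, and a gene with several of them was represented by the brightest on average over the 6 arrays.

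The respiratory chain sits in the inner mitochondrial membrane. Complex I takes electrons from NADH and complex II takes them from succinate, ubiquinone carries them to complex III, cytochrome c carries them on to complex IV, and complex IV passes them to oxygen. Complexes I, III and IV pump protons across the membrane, and complex V, the ATP synthase, makes ATP as the protons flow back. Nearly all subunits are encoded in the nucleus, and a few catalytic ones in mitochondrial DNA; 0 of 34945 probe sets with 1 symbol carried a symbol of a gene of mitochondrial DNA, so the genes below cover the nuclear part alone. In blood formation, quiescent stem cells are known to lean on glycolysis and differentiating myeloid cells on oxidative phosphorylation.

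All 6 arrays came from C6, a single clone of haematopoietic progenitor cells of background Rosa26rtTA C57BL/6J that carries the vector pRRL.TET.Evi1.IRES.EGFP, whose codon-optimized murine Evi1 and linked green fluorescent protein are made while doxycycline is present. Evi1 is a zinc finger transcription factor, and the series text describes the clone as depending on it. Both groups were kept in a medium with murine interleukin 3 at 20 ng/ml and with murine stem cell factor, human Flt3 ligand and human interleukin 11, each at 50 ng/ml. In the doxycycline group (3 arrays) the drug was present at 1 µg/ml, and in the withdrawal group (3 arrays) it had been gone for 48 h. Doxycycline is itself known to slow the mitochondrial ribosome, and arrays of cells without the transgene were not analysed here, so loss of the drug and loss of Evi1 induction cannot be told apart. All differences below are withdrawal minus doxycycline on the log2 scale of the deposited expression values, followed by limma's standard error (n = 3 in each group).

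The arrays had medians from 5.22 to 5.27 over all probe sets, and correlated at Pearson's r of 0.995 to 0.998 inside a group and 0.994 to 0.996 across groups. Withdrawal replicate 3 and doxycycline replicate 1 stood apart on the second principal component, which held 31.9% of the variance of probe sets at or above the median level. The labels do not say that replicates were separate cultures, so the p-values rest on a spread that may be technical alone. The 3 probe sets of Mecom, the gene of Evi1, lay near the floor of the arrays in both groups, at means of 2.63 to 3.66, and may not read a codon-optimized transcript, so they do not check the labels. The haematopoietic label was borne out by Ptprc (12.61 under doxycycline), Myb (12.87) and Kit (9.29), whereas 7 genes of liver, connective tissue, epithelium, heart, skeletal muscle and brown fat had means of 3.17 to 5.89 and 6 B and T cell genes means of 4.04 to 5.98. Of the 7 progenitor markers listed 5 had a mean of at least 8, and Flt3 was among the dim ones, at 5.77 under doxycycline.

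The core promoters of 4 members are shown because they carry the contrasts that follow: Cox7a2l, the member that fell; Cox7a2, its close relative, whose difference had the opposite sign; Ndufb5, with the largest positive difference among the bright members; and Atp5j, whose upstream sequence held the letters of 3 of the motifs searched. Each is the 250 bases before the annotated start, 5′ to 3′ on the strand of the gene, from RefSeq on GRCm38.p6: chr17:83514334-83514583 (minus strand) for Cox7a2l, chr9:79759854-79760103 (minus strand) for Cox7a2, chr3:32736813-32737062 (plus strand) for Ndufb5 and chr16:84834977-84835226 (minus strand) for Atp5j. Capitals mark matches to the motifs. In Atp5j, of which the second of 2 windows is shown, these are, in order, those of NRF1, YY1 and the ETS family, and the other 3 sequences held none.
Cox7a2l: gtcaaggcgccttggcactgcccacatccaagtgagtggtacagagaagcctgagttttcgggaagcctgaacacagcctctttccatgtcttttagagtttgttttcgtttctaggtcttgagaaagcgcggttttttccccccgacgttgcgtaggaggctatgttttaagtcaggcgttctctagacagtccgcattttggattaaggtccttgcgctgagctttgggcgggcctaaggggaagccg
Cox7a2: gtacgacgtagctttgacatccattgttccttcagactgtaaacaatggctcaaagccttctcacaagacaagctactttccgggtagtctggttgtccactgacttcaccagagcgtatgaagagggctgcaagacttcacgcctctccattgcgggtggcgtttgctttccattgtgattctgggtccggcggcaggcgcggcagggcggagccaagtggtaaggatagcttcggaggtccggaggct
Ndufb5: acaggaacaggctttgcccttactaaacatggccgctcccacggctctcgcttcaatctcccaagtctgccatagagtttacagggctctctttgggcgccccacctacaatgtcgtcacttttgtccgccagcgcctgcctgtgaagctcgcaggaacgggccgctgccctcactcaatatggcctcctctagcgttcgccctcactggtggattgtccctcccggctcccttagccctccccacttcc
Atp5j: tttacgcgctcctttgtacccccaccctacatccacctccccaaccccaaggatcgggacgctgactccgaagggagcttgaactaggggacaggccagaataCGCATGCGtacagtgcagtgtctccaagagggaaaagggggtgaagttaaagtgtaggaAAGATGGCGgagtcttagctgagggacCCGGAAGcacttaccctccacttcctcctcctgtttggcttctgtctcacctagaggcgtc

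The RefSeq table held promoter windows for 67 of the 83 genes, 72 windows of 300 bases in all (250 before and 50 after a start). The windows were searched on both strands for letters bound by known regulators of respiratory genes, for CCAAT and for letters of the EVI1 motif. The core CGCATGCG of NRF1 was in 8 of the 72 windows (11.1%) and in 1.87% of all 32851 windows of the table; its carriers were Ndufa8, Uqcrc1, Uqcr11, Cox6a1, Atp5k, Atp5l, Atp5g2 and Atp5j. The ETS letters CCGGAAG, read by GABPA among others, were in 17 windows (23.6%, against 8.86% of all windows), the YY1 letters AAGATGGCG in 6 (8.33%, against 1.4%) and the oestrogen-related receptor letters TCAAGGTCA in 2 (2.78%, against 0.423%). CCAAT was in 29 windows (40.3%, against 37.4%). The letters GACAAGATA, from the known motif of EVI1, were in 0 member windows and in 0.119% of all windows. At so low a share, 0 of 72 windows says little. None of these strings contains another. These matches describe sequence and were not set against the expression values by any test.

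After withdrawal, the respiratory chain genes as a group stayed close to their level under doxycycline. Of 83 genes 1 fell and none rose at an adjusted p below 0.05 in limma, against 1.57% of all genes lower, 1.2% higher and 2.77% in either direction. The gene that fell was Cox7a2l, by 0.32. The median difference was 0.01, as it was over all 18193 genes (0.01), and 44 differences were positive and 39 negative. Of the 83 genes, 67 (80.7%) differed by less than 0.1 on the log2 scale, which is 1.07-fold, compared with 54.7% of all genes. Their median absolute difference was 0.045, against 0.090 over all genes and 0.091 over the 6177 genes with a mean of at least 8, a level chosen after the values were seen. At that level 0 of 73 members rose and 1 fell, against 2.38% and 2.23% of genes (4.61% in either direction). Of the 170 probe sets 1 rose and 1 fell, against 0.79% and 1.18% of all probe sets (1.97% in either direction).

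The small differences came with narrow errors. Standard errors of the members ran from 0.06 to 0.14, and for 82 of 83 genes the 95% interval of the difference lay within 0.5 log2 units (1.41-fold) on either side of 0, compared with 88.9% of all genes. The exception was Cox7a1, at 0.06 to 0.54. At a mean of at least 8 the interval lay within this limit for all 73 members and for 91.9% of genes. At an unadjusted p below 0.05 there were 5 members (6.02%), 4 higher and 1 lower, against 16.3% of all genes (8% higher and 8.26% lower). With a mean of at least 8 these shares were 5.48% of members and 23.3% of genes. The 3 arrays of each group did not overlap for 13 members that were higher (15.7%, against 12.4% of all genes) and 9 that were lower (10.8%, against 12.2%). Among the 73 brighter members these were 12 and 9, against 19.9% and 21.3% of genes at that level. These values are transcript levels in bulk cultures; fewer cells of a type and less RNA per cell cannot be told apart, and RMA would remove a shift shared by most transcripts.

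**Figure D1:**
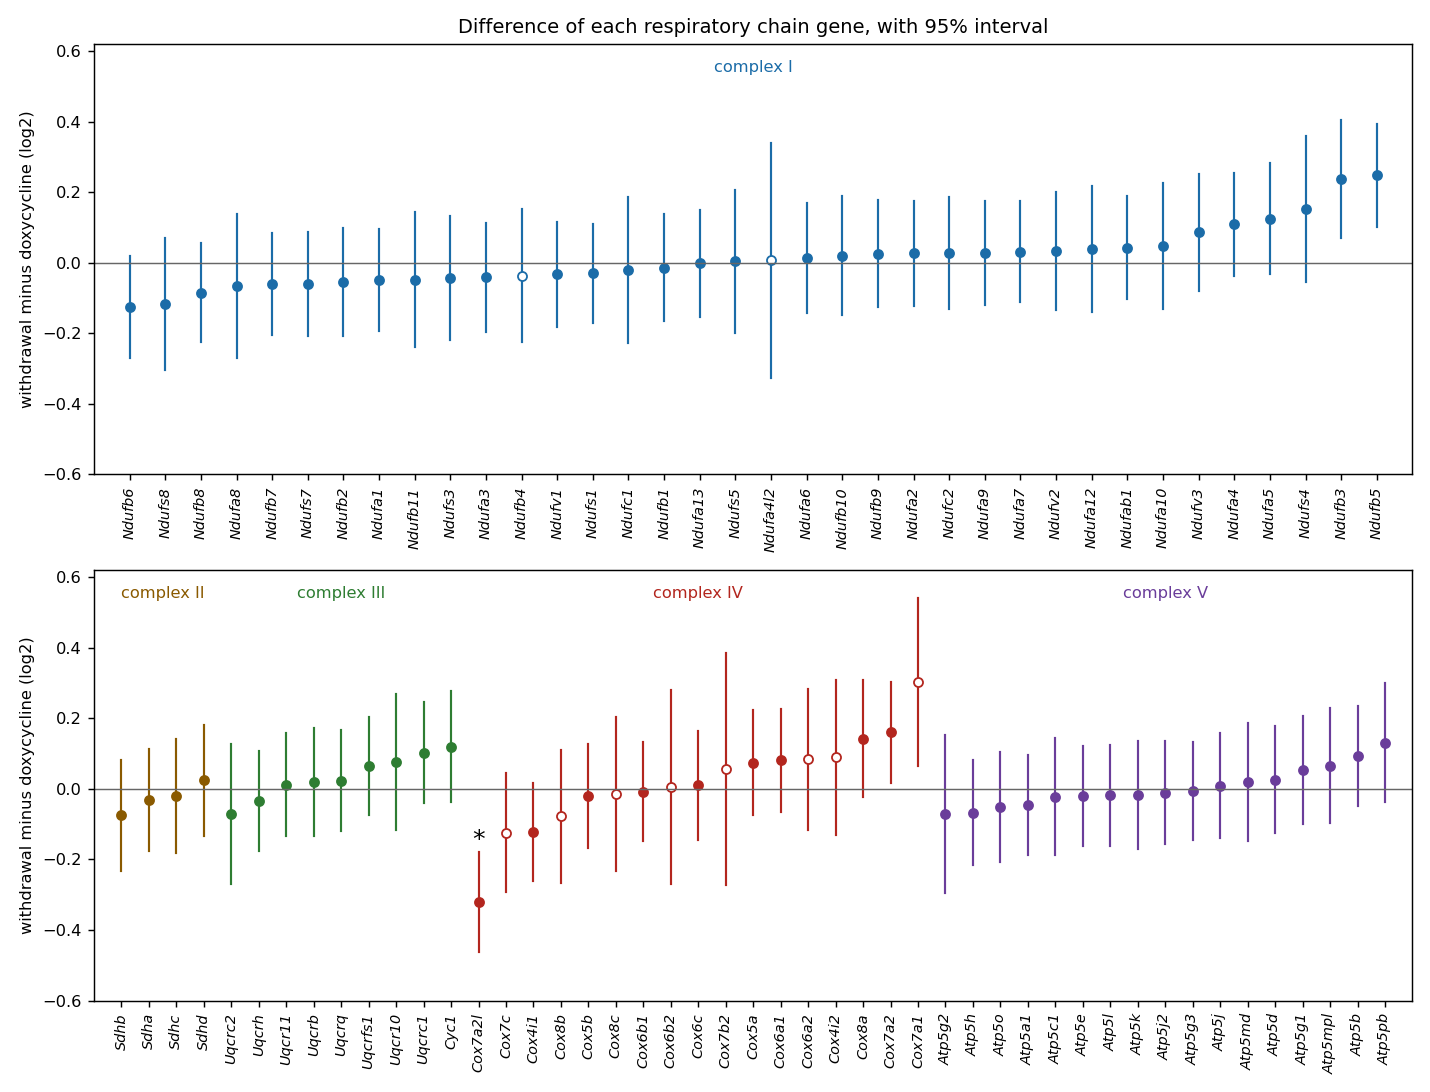
Difference of each of the 83 genes, withdrawal minus doxycycline (log2), by complex, with its 95% interval from limma (n = 3 arrays per group); open circles are genes with a mean below 8 and the asterisk marks adjusted p below 0.05. Nearly all intervals cross 0, and Cox7a2l is the single gene marked, at -0.32.

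Complex I, NADH dehydrogenase, is the largest of the complexes. None of its 36 measured genes passed the test in limma. Of them 2 (5.56%) had an unadjusted p below 0.05, against 16.3% of all genes and 23.3% of genes with a mean of at least 8. The median difference of complex I was 0.005, with 19 positive and 17 negative differences and a range from -0.13 to 0.25. The conserved core subunits described here, from the part of the complex that holds the flavin and the iron-sulphur clusters, were 6: Ndufv1 (-0.03), Ndufv2 (0.03), Ndufs1 (-0.03), Ndufs3 (-0.04), Ndufs7 (-0.06) and Ndufs8 (-0.12), with 95% intervals between -0.30 and 0.20 for all 6. The accessory subunits, which stabilise the complex, numbered 30 and had a median difference of 0.02.

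The largest differences in complex I were those of Ndufb5 and Ndufb3, both accessory subunits of the membrane arm. Ndufb5 read 11.78, 11.81 and 11.83 under doxycycline and 12.04, 12.02 and 12.10 after withdrawal. The 2 groups were apart by more than the spread within either, with a difference of 0.25 ± 0.06, or 1.19-fold, but the gene did not pass over all probe sets (limma adjusted p = 0.116). Its other probe set differed by 0.16 ± 0.08. Ndufb3 read 11.59, 11.49 and 11.56 under doxycycline and 11.71, 11.76 and 11.88 after withdrawal, a difference of 0.24 ± 0.07 (limma adjusted p = 0.187). In the fit with trend and robust options both passed, at limma adjusted p = 0.00211 for Ndufb5 and 0.0133 for Ndufb3.

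Further positive differences in this complex were those of Ndufs4 (0.15), an accessory subunit at the electron input end, Ndufa5 (0.12) and Ndufa4 (0.11). Ndufa4 is named for complex I but is now placed with complex IV. On the negative side stood Ndufb6 (-0.13), which read 11.56 to 11.63 under doxycycline and 11.45 to 11.50 after withdrawal in its brightest probe set but differed by -0.007 ± 0.06 in another, Ndufs8 and Ndufb8 (-0.09). In the brightest probe sets of Ndufb6 and Ndufb8 the groups did not overlap, and in that of Ndufs8 they did. Ndufab1, the mitochondrial acyl carrier protein, which also serves fatty acid synthesis, differed by 0.04 ± 0.06. Ndufa4l2, a relative of Ndufa4 known to be induced by hypoxia, was read at 6.39 over the 6 arrays and differed by 0.006 ± 0.14. The probe set with Ndufb4 as its only symbol was near the floor, at 3.41, while 2 bright probe sets that list Ndufb4 together with copies of it differed by -0.07 and -0.10. Probe sets shared by Ndufs6 or Ndufa11 with a copy differed by 0.06 to 0.13. None of the 10 probe sets that list a member among several symbols passed in limma.

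Complex II, succinate dehydrogenase, also works in the citrate cycle. None of its 4 subunit genes passed in limma, and none had an unadjusted p below 0.05. Sdha, the flavoprotein, read 11.24, 11.22 and 11.28 under doxycycline and 11.19, 11.25 and 11.21 after withdrawal, so the groups overlapped (-0.03 ± 0.06). Sdhb, the iron-sulphur subunit, differed by -0.08 ± 0.07, and the membrane anchors Sdhc and Sdhd by -0.02 ± 0.07 and 0.02 ± 0.07. All 4 intervals lay between -0.23 and 0.18.

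Complex III, the cytochrome bc1 complex, had 9 measured genes, of which none passed in limma and none had an unadjusted p below 0.05. Their median difference was 0.02 and 7 of 9 differences were positive. Cyc1, which encodes cytochrome c1, read 10.95, 11.09 and 11.07 under doxycycline and 11.14, 11.19 and 11.14 after withdrawal (0.12 ± 0.07, limma adjusted p = 0.495). Uqcrc1, a core subunit, differed by 0.10 ± 0.06 and Uqcrfs1, the Rieske iron-sulphur protein, by 0.07 ± 0.06. In these 3 genes the groups did not overlap, with withdrawal the higher. In Uqcrh (-0.03 ± 0.06) they did not overlap with withdrawal the lower. Of all genes with a mean of at least 8, 19.9% were higher and 21.3% lower without overlap. Uqcrc2, the other core subunit, differed by -0.07 ± 0.09 with overlapping groups.

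Uqcr10, a small subunit of complex III, was the member whose probe sets disagreed most. Its brightest probe set read 11.42, 11.23 and 11.38 under doxycycline and 11.33, 11.41 and 11.52 after withdrawal (0.08 ± 0.08), and so did not pass. A dimmer one read 8.17, 8.19 and 8.19 against 8.73, 8.68 and 8.71, a rise of 0.52 ± 0.06 (limma adjusted p = 0.00686). The remaining one differed by 0.24 ± 0.08 (limma adjusted p = 0.243). Among 39 members with several probe sets at a mean of at least 8, the differences of 37 spanned less than 0.2, and the span of 0.45 for Uqcr10 was the widest. What each probe set of Uqcr10 reads was not tested.

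Complex IV, cytochrome c oxidase, held the single gene called among the 83. Cox7a2l encodes a protein related to the Cox7a subunits, also named SCAF1, that is known to join complexes III and IV into supercomplexes; mice of the C57BL/6 background carry a shortened form of it. It read 11.54, 11.56 and 11.50 under doxycycline and 11.21, 11.22 and 11.20 after withdrawal. All 3 withdrawal arrays lay below all 3 doxycycline arrays, and the spread within a group was small beside the gap between them. The difference was -0.32 ± 0.06, which is 1.25-fold lower, with a 95% interval from -0.46 to -0.18 (limma adjusted p = 0.0467).

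Both other probe sets of Cox7a2l gave the same size. They differed by -0.32 ± 0.06 and -0.30 ± 0.06 and lay just outside the threshold (limma adjusted p = 0.0579 and 0.0609). The 3 probe sets read the same RNA and are not replicates of the condition. The difference stayed between -0.34 and -0.31 when any 1 array was left out, but the call was lost each time, with limma adjusted p from 0.0964 without withdrawal replicate 3 to 0.179 without doxycycline replicate 2. The call was kept with the mean of the 3 probe sets (-0.31, limma adjusted p = 0.0350) and with repeated quantile normalization (limma adjusted p = 0.0392). It was also kept with array weights (0.0255), a filter on dim probe sets (0.00950) and trend and robust options (0.000328). It was lost when the arrays were centred on their medians (-0.32, limma adjusted p = 0.0600) and with the interquartile range as a covariate (0.0513). A replicate block (0.145) and a fit on 4 arrays (0.228) lost it too.

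The closest relatives of Cox7a2l did not fall with it. Cox7a2, the Cox7a subunit found in most tissues, read 13.34, 13.33 and 13.36 under doxycycline and 13.47, 13.50 and 13.53 after withdrawal. Its groups did not overlap, with withdrawal the higher, but the difference of 0.16 ± 0.06 did not pass (limma adjusted p = 0.289; 0.00702 with trend and robust options). Cox7a1, the heart and muscle form, was dim at 5.31 to 5.67 under doxycycline and 5.69 to 5.81 after withdrawal. Its difference of 0.30 ± 0.10 was the largest positive one among the members and did not pass (limma adjusted p = 0.230).

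Among the other subunits of complex IV, Cox4i1, the common form of the largest nuclear subunit, read 13.10, 13.08 and 13.08 under doxycycline and 12.97, 12.95 and 12.96 after withdrawal. The groups did not overlap, and the difference of -0.12 ± 0.06 did not pass (limma adjusted p = 0.415; 0.0278 with trend and robust options). Cox8a, a small membrane subunit, differed by 0.14 ± 0.07, Cox6a1 by 0.08 ± 0.06, Cox5a by 0.07 ± 0.06, Cox5b by -0.02 ± 0.06, Cox6c by 0.01 ± 0.07 and Cox6b1 by -0.007 ± 0.06. Cox7c was read at 7.35 and differed by -0.12 ± 0.07. The median difference of the 17 genes was 0.01.

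The isoforms of other tissues were read at low levels in both groups. These 8 genes, Cox4i2 of lung, Cox6a2, Cox7a1 and Cox8b of heart and muscle, Cox6b2, Cox7b2 and Cox8c of testis, and Ndufa4l2, had means from 3.08 to 7.26, and none of them passed in limma. With Ndufb4 and Cox7c they were the 10 members with a mean below 8. The other 73 members had means from 9.14 to 14.11, and 71 of the 83 were at or above the 90th percentile of all probe sets. Since fold changes are compressed near the floor, a change in the dim isoforms would be understated.

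**Figure D2:**
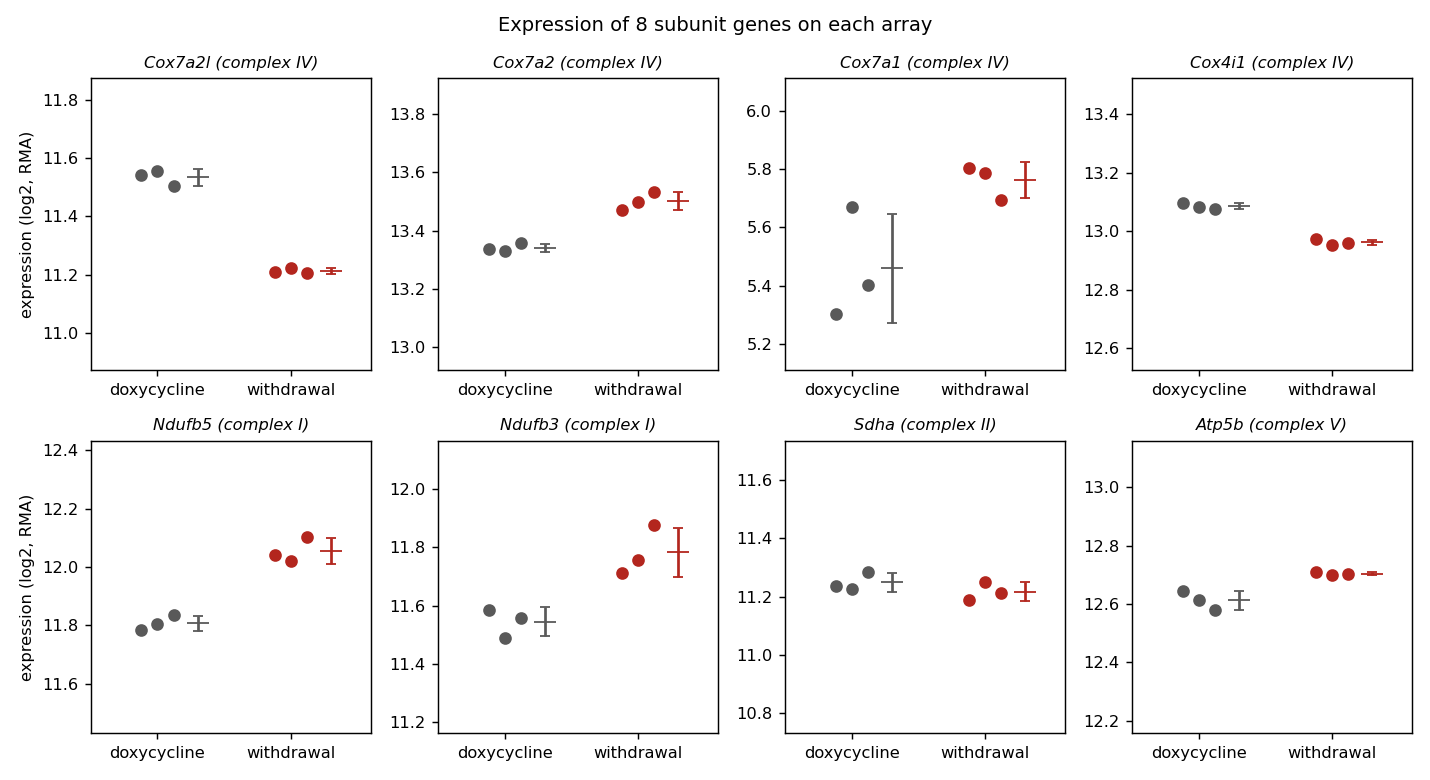
Expression (log2, RMA) of 8 subunit genes on each of the 6 arrays, with the mean and SD of each group (n = 3) beside the points; every panel spans 1 log2 unit. Cox7a2l is lower on all 3 withdrawal arrays (11.20 to 11.22 against 11.50 to 11.56), Cox4i1 is lower by 0.12, Cox7a2, Ndufb5, Ndufb3 and Atp5b are higher without overlap, as is the dim Cox7a1, and the groups of Sdha overlap.

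Complex V, the ATP synthase, was near its level under doxycycline in nearly all of its genes. None of its 17 genes passed in limma, none had an unadjusted p below 0.05, and 16 of 17 differed by less than 0.1, with a median absolute difference of 0.027. The catalytic head contains the alpha, beta, gamma, delta and epsilon subunits. Of these Atp5b, the catalytic beta subunit, read 12.64, 12.61 and 12.58 under doxycycline and 12.71, 12.70 and 12.70 after withdrawal, without overlap (0.09 ± 0.06). Atp5a1 (alpha) differed by -0.04, also without overlap but with withdrawal the lower. Atp5c1 (gamma) differed by -0.02, Atp5d (delta) by 0.03 and Atp5e (epsilon) by -0.02. Of the 17 genes 2 were higher and 1 lower without overlap, against 19.9% and 21.3% of genes with a mean of at least 8.

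The membrane part turns with the proton flow through a ring of subunit c, which 3 genes encode with different import sequences. Atp5g1 differed by 0.05 ± 0.07, Atp5g2 by -0.07 ± 0.10 and Atp5g3 by -0.006 ± 0.06. Atp5pb, the b subunit of the stalk that holds the head in place, had the largest difference of the complex, 0.13 ± 0.07, from 12.70 to 12.85 under doxycycline to 12.86 to 12.98 after withdrawal, without overlap but not past the threshold (limma adjusted p = 0.481). Its second probe set differed by 0.20 ± 0.07, also without overlap (limma unadjusted p = 0.0186, adjusted p = 0.226). Atp5h, Atp5o and Atp5j, also of the stalk, differed by -0.07, -0.05 and 0.01. The small membrane subunits Atp5j2, Atp5k, Atp5l, Atp5md and Atp5mpl differed by -0.02 to 0.07.

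On single arrays the complexes also stayed near their means. The median deviation of the 83 genes from their 6-array means ran from -0.02 to 0.03, with the lowest values on doxycycline replicate 2 and withdrawal replicate 1 and the highest on doxycycline replicate 3 and withdrawal replicate 3. The medians of complex IV ran from -0.03 on withdrawal replicate 1 to 0.07 on withdrawal replicate 3, and those of complex V from -0.01 to 0.02. In complexes I, II, IV and V the range of these medians within either group was larger than the difference between the means of the groups. In complex III that difference exceeded the range of the doxycycline arrays but not that of the withdrawal arrays, and the groups overlapped.

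**Figure D3:**
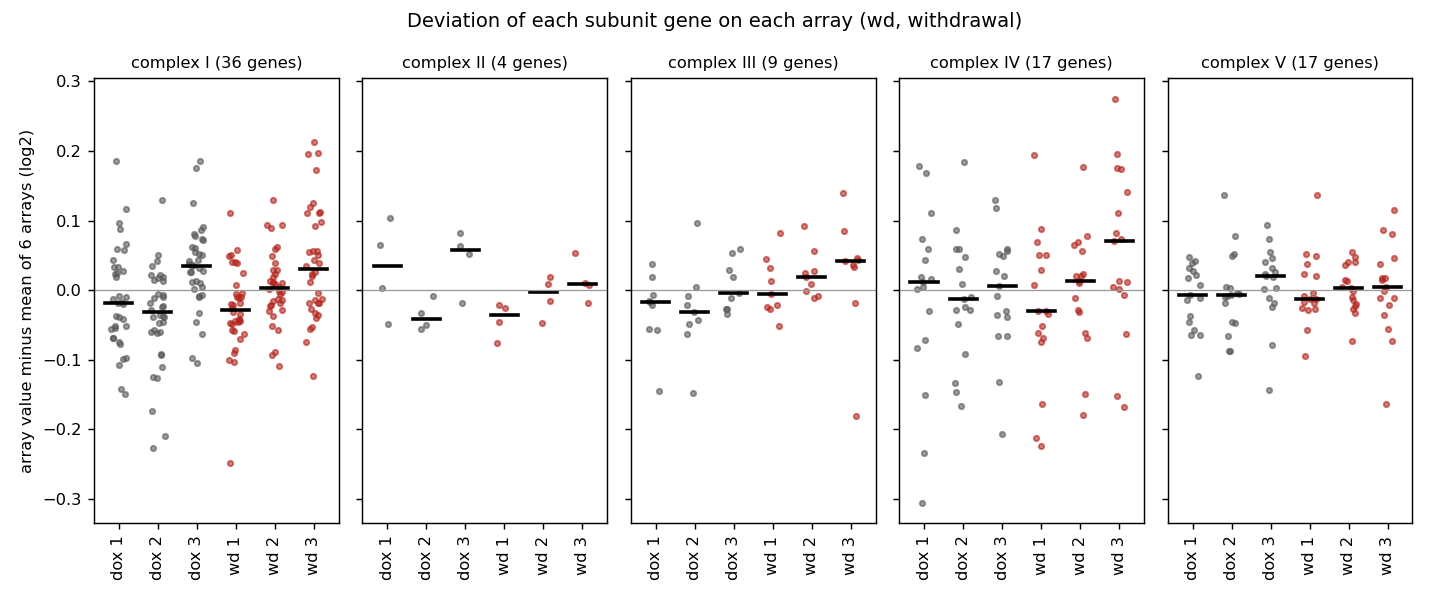
Value on each array minus the mean of the 6 arrays (log2) for each subunit gene, by complex; points are genes, bars are medians over the genes, grey is doxycycline and red is withdrawal. The medians lie between -0.04 and 0.07 and the arrays of both groups are interleaved.

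Genes that build and feed the chain were read from lists written with general knowledge and chosen with earlier results of these data known. Of 51 assembly factors, which insert cofactors and put subunits together, 48 were measured; 1 fell and none rose, against 1.57% and 1.2% of all genes, with a median difference of -0.01. At an unadjusted p below 0.05 there were 11, 6 higher and 5 lower, where the share of all genes was 16.3%. The one that fell was Pet100, a chaperone of complex IV, from 10.50 to 10.16 (-0.34 ± 0.06, limma adjusted p = 0.0462). Coa4 (0.25), Ndufaf3 (0.26) and Sco2 (-0.22) did not pass. Of 18 measured electron carriers and exchangers none passed in limma and 2 had an unadjusted p below 0.05. Slc25a4, which swaps ADP for ATP across the inner membrane, differed by -0.24 ± 0.08 (limma adjusted p = 0.199). Of 12 genes of coenzyme Q synthesis none passed and 3 had an unadjusted p below 0.05; their median difference was 0.10, led by Pdss2 (0.25 ± 0.08), which helps make its side chain.

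In the citrate cycle and pyruvate dehydrogenase list 1 of 23 genes fell and none rose (median -0.06). It was Pdk1, the kinase that switches pyruvate dehydrogenase off, from 9.78 to 9.30 (-0.48 ± 0.07, limma adjusted p = 0.0251). Of 16 glycolysis genes 2 fell and none rose (median -0.07): Ldhb, a lactate dehydrogenase subunit, from 8.23 to 7.67 (-0.56 ± 0.07, limma adjusted p = 0.0130), and Pfkp, a phosphofructokinase, from 10.75 to 10.42 (-0.34 ± 0.06, limma adjusted p = 0.0430). The shares for these lists stand against the 1.57% of all genes that were lower, and with lists of this size 1 or 2 genes decide them.

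Of 76 genes of the mitochondrial ribosome, which makes the subunits encoded in mitochondrial DNA, 1 fell and none rose, against 1.57% and 1.2% of all genes. Of its 76 differences 53 were positive (median 0.05), compared with 9827 of 18193 over all genes, and 8 genes had an unadjusted p below 0.05, 6 higher and 2 lower. The gene that fell was Mrpl52, from 10.42 to 9.86 (-0.55 ± 0.07, limma adjusted p = 0.0127), while Mrpl19 differed by 0.34 ± 0.07 and did not pass (limma adjusted p = 0.0584). Of 23 genes of mitochondrial protein import none passed in limma and 1 had an unadjusted p below 0.05 (median 0.04). Of 24 regulators of mitochondrial transcription and biogenesis none passed and 8 had an unadjusted p below 0.05, 2 higher and 6 lower (median -0.05), where 8% of all genes were higher and 8.26% lower at that level. They included Myc (-0.29 ± 0.06, limma adjusted p = 0.0730), the polymerase gene Polg (0.27 ± 0.06) and Tfb1m (-0.29 ± 0.07), which methylates mitochondrial ribosomal RNA. Of 9 mitochondrial antioxidant genes none passed, and 1, Sod2 (-0.19 ± 0.06), had an unadjusted p below 0.05 (median -0.02). Of 48 genes of the cytosolic ribosome 1, Rpl14 (-0.51 ± 0.06), fell and none rose (median -0.05). Of its differences 10 were positive and 38 negative, and 42 of the 48 genes had a mean of at least 8. The groups did not overlap for 20 lower (41.7%) and 2 higher genes (4.17%). Without overlap 12.2% of all genes were lower and 12.4% higher, and 21.3% and 19.9% of genes with a mean of at least 8.

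**Figure D4:**
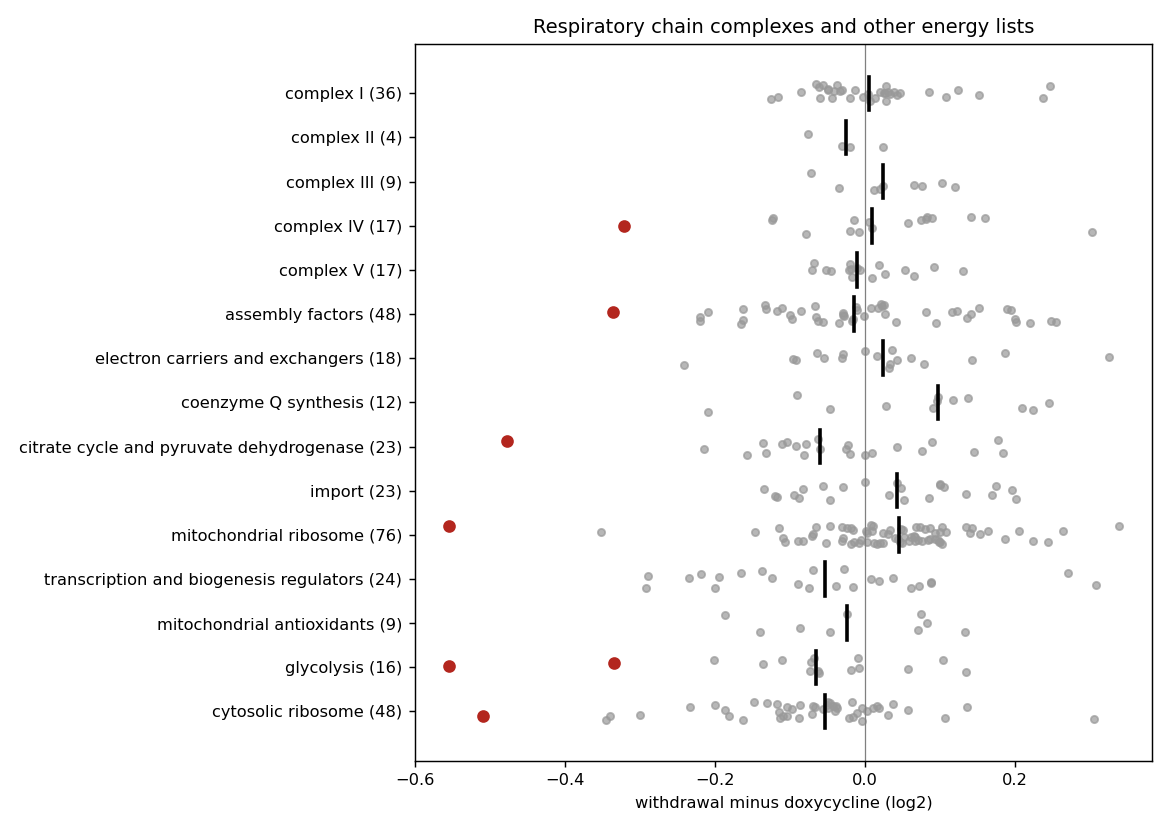
Differences (withdrawal minus doxycycline, log2) of single genes in the 5 complexes and in 10 other lists, with the number of genes in brackets; red points passed at adjusted p below 0.05 in limma and black bars are list medians. The 7 red points are all lower after withdrawal, and the complex medians lie between -0.03 and 0.02.

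Markers of several blood lineages moved over the same arrays, in lists chosen with earlier results of these data known. Of 4 eosinophil markers 3 rose, of 6 mast cell and basophil markers 3 rose and of 6 neutrophil markers 2 rose. Among the mast cell and basophil markers 1 was lower at an unadjusted p below 0.05. Of 5 megakaryocyte markers 3 fell, of 5 monocyte and macrophage markers 3 fell and of 7 progenitor markers 1 fell. None of 5 red cell markers passed in limma, although 3 had an unadjusted p below 0.05, 1 higher and 2 lower. Over all genes 1.2% were higher and 1.57% lower at an adjusted p below 0.05, and 8% and 8.26% at an unadjusted p below 0.05. The mean level of the mast cell and basophil list was 10.31 to 10.37 on the doxycycline arrays and 10.86 to 10.92 on the withdrawal arrays. That of the eosinophil list was 8.81 to 8.90 and 9.31 to 9.45, that of the neutrophil list 13.73 to 13.78 and 14.03 to 14.06, that of the megakaryocyte list 7.96 to 8.22 and 7.40 to 7.51, and that of the monocyte and macrophage list 10.14 to 10.16 and 9.80 to 9.86. The array means overlapped for the progenitor list, at 9.63 to 9.71 and 9.60 to 9.68, and for the red cell list, at 4.97 to 5.04 and 4.90 to 5.04. The part of these lineages in the difference of Cox7a2l was not tested.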

How the data were processed

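Total RNA of 6 samples was amplified as cDNA, labelled with biotin and hybridised to Affymetrix-style mouse arrays, per the labels' protocols. The authors deposited log2 expression values per probe set, made with RMA per the submitters' processing notes; no source used here gives its version or the chip definition. The log2 scale was read from the range of the values. RMA normalizes between arrays, which removes shared shifts and compresses differences of dim genes.

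Of 45101 deposited rows 64 control probe sets were left out. Samples were grouped by title and compared in R 4.3.3 with limma 3.58.1 (lmFit, then eBayes) on all 45037 probe sets, two-sided, without covariate, with 4 residual and 3.54 prior degrees of freedom and Benjamini-Hochberg adjustment over all probe sets (threshold 0.05). Intervals are limma's 95% intervals. The number of arrays limits the precision. Genes were named through the platform annotation. The steps were tested on simulated data. Members and lists were chosen with earlier results of these data known. In full were named the called members, those with the largest differences in each complex, tissue isoforms and members with disagreeing probe sets; of other lists, genes with the smallest adjusted p. The alternatives were each array left out, a replicate block, a filter on dim probe sets, median centring, repeated quantile normalization, trend and robust options, array weights, the interquartile range as a covariate, a fit on 4 arrays, other choices of probe set and other thresholds. Python 3.11.15 and matplotlib 3.10.9 served for tables and figures.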

Additional observations from a re-analysis of the deposited data

How the results depend on the processing

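The median difference of the 83 genes stayed between -0.01 and 0.02 over 17 alternatives, each within 0.04 of the reported one, the larger of the groups' SDs, over 3 arrays, of the members' median level. Of 228 counts by complex and overall under the alternatives, 195 stayed within 1.5 times the reported count. Every reported count was 0 except those of lower genes in all and in complex IV, which were 1. A count of 0 met this limit whenever it stayed 0, so the share says little about stability. Leaving out any 1 of the 6 arrays gave 0 lower genes in all and 0 lower genes in complex IV, since the call of Cox7a2l was lost without each of them. Both counts of lower genes were also 0 with arrays centred on their medians, with the interquartile range as covariate, in the fit on 4 arrays (without withdrawal replicate 3 and doxycycline replicate 1, limma adjusted p = 0.228 for Cox7a2l), with only probe sets without shared-transcript names, and at an adjusted p under 0.01. The filter on shared-transcript names left 67 genes, without Cox7a2l, and gave 1 higher gene in all and 1 in complex III, Uqcr10. Trend and robust options gave 3 higher and 2 lower genes in all, with 2 higher in complex I and 1 higher and 2 lower in complex IV, when 5.46% of all probe sets were called. With only probe sets at or above the median level 1 gene was higher in all and 1 in complex I, Ndufb5 (limma adjusted p = 0.0284), when 8.63% of probe sets were called.

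With the replicate number as a block, 0 genes were lower in all and 0 in complex IV (Cox7a2l, limma adjusted p = 0.145), and 291 probe sets were called in place of 886. The deviations of same-numbered arrays correlated at -0.30, 0.46 and -0.03, and not every array correlated best with its own number. With 3 arrays in each group these values cannot settle whether the numbers pair the samples. Signal over background limits the 10 members with a mean below 8.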

Other observations

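Of the 170 probe sets of the members, 2 ranged over more than 1 log2 unit across the 6 arrays, a level chosen after the data were seen. A second probe set of Ndufab1 read 9.66, 7.95 and 8.72 under doxycycline and 7.95, 7.82 and 10.02 after withdrawal. The highest values were those of withdrawal replicate 3 and doxycycline replicate 1, the arrays that stood apart on the second principal component. The brightest probe set of Ndufab1 read 11.88 to 11.97 and 11.95 to 11.99 on the same arrays. The other wide probe set, a dimmer one of Atp5a1, read 9.48, 7.94 and 8.25 under doxycycline and 7.58, 7.91 and 9.81 after withdrawal, and was highest on the same 2 arrays.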
